A study of Mus musculus with 11 samples.

Results

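Axon guidance genes encode the secreted and membrane-bound cues that steer growing axons and the receptors that read them. The genes described here were chosen by symbol: semaphorins of classes 3 to 7 with their plexin and neuropilin receptors, ephrins and Eph receptors, Slits and Robo receptors, netrins with Dcc and the Unc5 receptors, and both netrin-G genes. Of 73 symbols that matched, 71 reached 1 CPM (counts scaled to a common library size) in at least 1 library, among 15295 genes that did so. They were 20 semaphorins, 11 plexins and neuropilins, 8 ephrins, 14 Eph receptors, 3 Slits, 4 Robo receptors, 4 netrins, 5 netrin receptors and 2 netrin-G genes. Plxna4os1, an antisense transcript at Plxna4, and Unc5cl matched the symbol rule but stayed below 1 CPM, with 2 to 19 and 3 to 18 counts per library. Efna4 was tested only in the homozygous round, where it passed through the 23 counts of 1 WT library.

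RNA was sequenced from the hippocampus of 1 hemisphere of 11 C57BL/6N mice at postnatal day 32, an age taken from the study's methods, since the labels say adult. Mutant mice lacked the non-coding 1b interval of Scn1a, the gene of the sodium channel NaV1.1, on 1 (1b+/-) or both (1b-/-) chromosomes, in a line made by Cas9 deletion and bred to C57BL/6N. In the homozygous round, 2 WT mice (both female) were sequenced with 2 1b-/- mice (replicate 1 male, replicate 2 female) in single-end reads of 50 bases. In the heterozygous round, 3 WT mice (all male) were sequenced with 4 1b+/- mice (replicates 1 to 3 male, replicate 4 female) in paired-end reads of 150 bases. Each mutant group was compared only with the WT mice of its round, and the question was which guidance genes differed in the hippocampus when 1 or both copies of the interval were absent.

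Semaphorins signal through plexins, with neuropilins as co-receptors of the secreted class 3 members, and most often repel axons. Ephrins are membrane-bound and signal to Eph receptor tyrosine kinases on the neighbouring cell, also in the reverse direction. Slits act on Robo receptors, and netrins attract axons through Dcc or repel them through Unc5 receptors. In the hippocampus these families are known for sorting the afferent paths into layers during development, and many stay expressed in adult neurons, where some act at synapses.

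Scn1a, the targeted gene, was examined first as a check of the labels. In the homozygous round Scn1a stood at 134 and 173 CPM in WT against 26.3 and 16.7 CPM in 1b-/- mice (log2 fold change -2.83, SE 0.27, edgeR adjusted p = 0.0211). In the heterozygous round it was at 171, 113 and 123.2 CPM in WT and at 91.2, 83.4, 96.7 and 119 CPM in 1b+/- mice, groups that overlapped (log2 fold change -0.47, SE 0.15, edgeR adjusted p = 0.303). Library totals ran from 20667122 to 36145161 counts. Variation between mice of a group, as the biological coefficient of variation, came to 22.9% for the 4 homozygous-round libraries against 9.13% for the 7 others. CPM values are scaled by TMM factors within a round.

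Both WT libraries of the homozygous round carried RNA of markers of other regions. The 15 striatal markers tested, among them Drd1a, Tac1 and Ppp1r1b, summed to 8851 and 3758 CPM in these libraries, 448 and 536 CPM in the 1b-/- libraries. In the 7 libraries of the heterozygous round 14 of these passed the filter (Isl1 did not, and Drd1a is listed as Drd1), with sums of 454 to 689.7 CPM. All 15 had lower estimates in 1b-/- mice and 11 were called lower. The 7 hippocampal markers, among them Spink8 and 3 shared with the dentate and CA1 lists, summed to 256 and 279 CPM in the same WT libraries and 1005 and 859 CPM in the 1b-/- libraries, and 4 were called higher. In the heterozygous round they summed to 545 to 594 CPM in WT and 560.3 to 707 CPM in 1b+/- libraries. All 7 had higher estimates in 1b-/- mice, and the sums hide larger gaps of single markers. In the homozygous round Spink8 was at 0.361 and 0.234 CPM in WT and 10.1 and 11.7 CPM in 1b-/- libraries. C1ql2, a dentate marker, was at 1.85 and 1.78 CPM in WT and 71.7 and 79.0 CPM in 1b-/- libraries. The dentate list held 8 higher and 2 lower estimates. No marker of the lists used was at 0 in a whole group. The part of tissue composition in the homozygous comparison was not tested, and since no library of this WT group was free of the striatal markers, genotype and composition cannot be told apart there. In bulk tissue, fewer cells of a type also cannot be told apart from less RNA per cell.

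Levels between genes were compared per kilobase of exon, as CPM per kilobase in the heterozygous-round WT mice (mean ± SD, n = 3). Among the semaphorins, the transmembrane Sema6b (35.1 ± 1.996) and the membrane-anchored Sema7a (31.6 ± 5.26) were highest and did not differ beyond their spread, and the secreted Sema3g (1.27 ± 0.132) and Sema3b (1.24 ± 0.170) were lowest. Among their receptors, Nrp1 (21.1 ± 1.67) and Plxna1 (19.98 ± 1.31) led and lay within each other's spread, with Plxna3 (4.16 ± 0.441) at the low end.

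Single members stood far above the rest among the ephrins and the Eph receptors. Efnb3, a transmembrane ephrin, was at 56.1 ± 5.06 against 16.3 ± 1.46 for the next ephrin, Efna3. Epha4, which binds ephrins of both classes, was at 55.2 ± 4.66 against 16.8 ± 2.14 for Ephb6, a family member without kinase activity, and Epha1 was lowest at 0.195 ± 0.0579. The gaps below Efnb3 and Epha4 were larger than the SDs.

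Slit1 was at 30.4 ± 3.55, Slit3 at 11.7 ± 1.04 and Slit2 at 4.06 ± 0.379, an order outside the SDs. Robo1 (8.88 ± 0.512) lay a little above Robo2 (7.50 ± 0.604), while Robo3 (1.77 ± 0.599) and Robo4 (1.28 ± 0.0630) were low and overlapped. Unc5a (31.3 ± 4.78) exceeded the other netrin receptors, which lay between 6.45 and 8.54, and all 4 netrins were low, from 1.45 for Ntn4 to 2.27 for Ntn3. Receptors of the netrin family were thus several times more abundant per length than its ligands in this tissue. Ntng1 (12.4 ± 6.47) and Ntng2 (8.08 ± 0.925), anchored synaptic proteins that bind Lrrc4 family partners, did not differ beyond their spread.

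**Figure D1:**
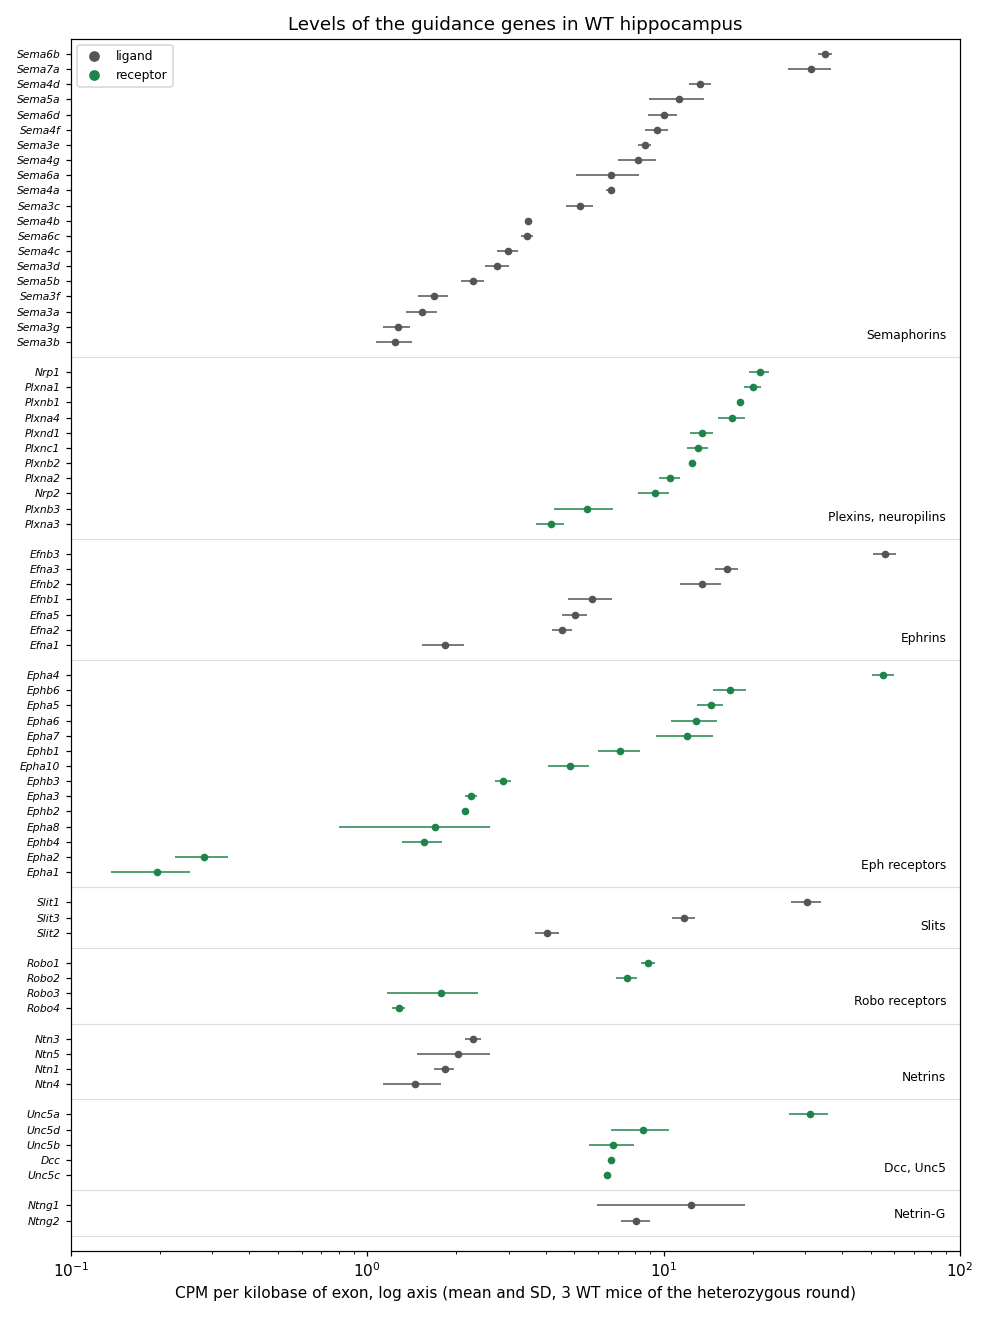
Level of each guidance gene in WT hippocampus as CPM per kilobase of exon on a log axis (points and bars are mean and SD of the 3 WT mice of the heterozygous round, grey for ligands and green for receptors). Efnb3 and Epha4 lie farthest right, at 56.1 and 55.2, and Epha1 farthest left, at 0.195.

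In the homozygous comparison 12 of the 71 guidance genes were called at an adjusted p under 0.05 (edgeR, quasi-likelihood F-test, Benjamini-Hochberg over the 14838 genes of that round). That is 16.9% of them, beside 3.58% of all genes. Epha6, Unc5a, Slit1, Efna3, Ephb2, Unc5c, Epha3, Nrp1 and Sema6c were higher in 1b-/- mice (9 of 71, beside 2.06% of all genes called higher), and Efna5, Robo3 and Sema3a were lower (3 of 71, beside 1.52%). At an unadjusted p under 0.05 there were 36 members, 26 higher and 10 lower, or 50.7% beside 26.4% of all genes. The median log2 fold change was 0.36 over the members and -0.00125 over all genes. The groups did not overlap for 54 members (76.1%, beside 59.7% of all genes), 35 of them higher and 19 lower in 1b-/- mice.

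Most of the 12 calls were lost when either WT library was left out. Without WT replicate 1, edgeR called no guidance gene and no gene at all, with 33 members and 3861 genes at an unadjusted p under 0.05. Without WT replicate 2 it called 3 members (Epha5, Epha6 and Plxna1), and without 1b-/- replicates 1 and 2 it called 21 and 10. The directions of the 12 called genes were the same in all 4 of these fits, and the log2 fold changes ranged from 2.25 to 2.54 for Epha6, 1.19 to 1.27 for Unc5a, 1.02 to 1.26 for Efna3 and 2.46 to 3.30 for Slit1, in which a group reduced to 1 mouse is assumed to vary like the other. With 2 mice against 2, an exact permutation test cannot go below p = 0.33.

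**Figure D2:**
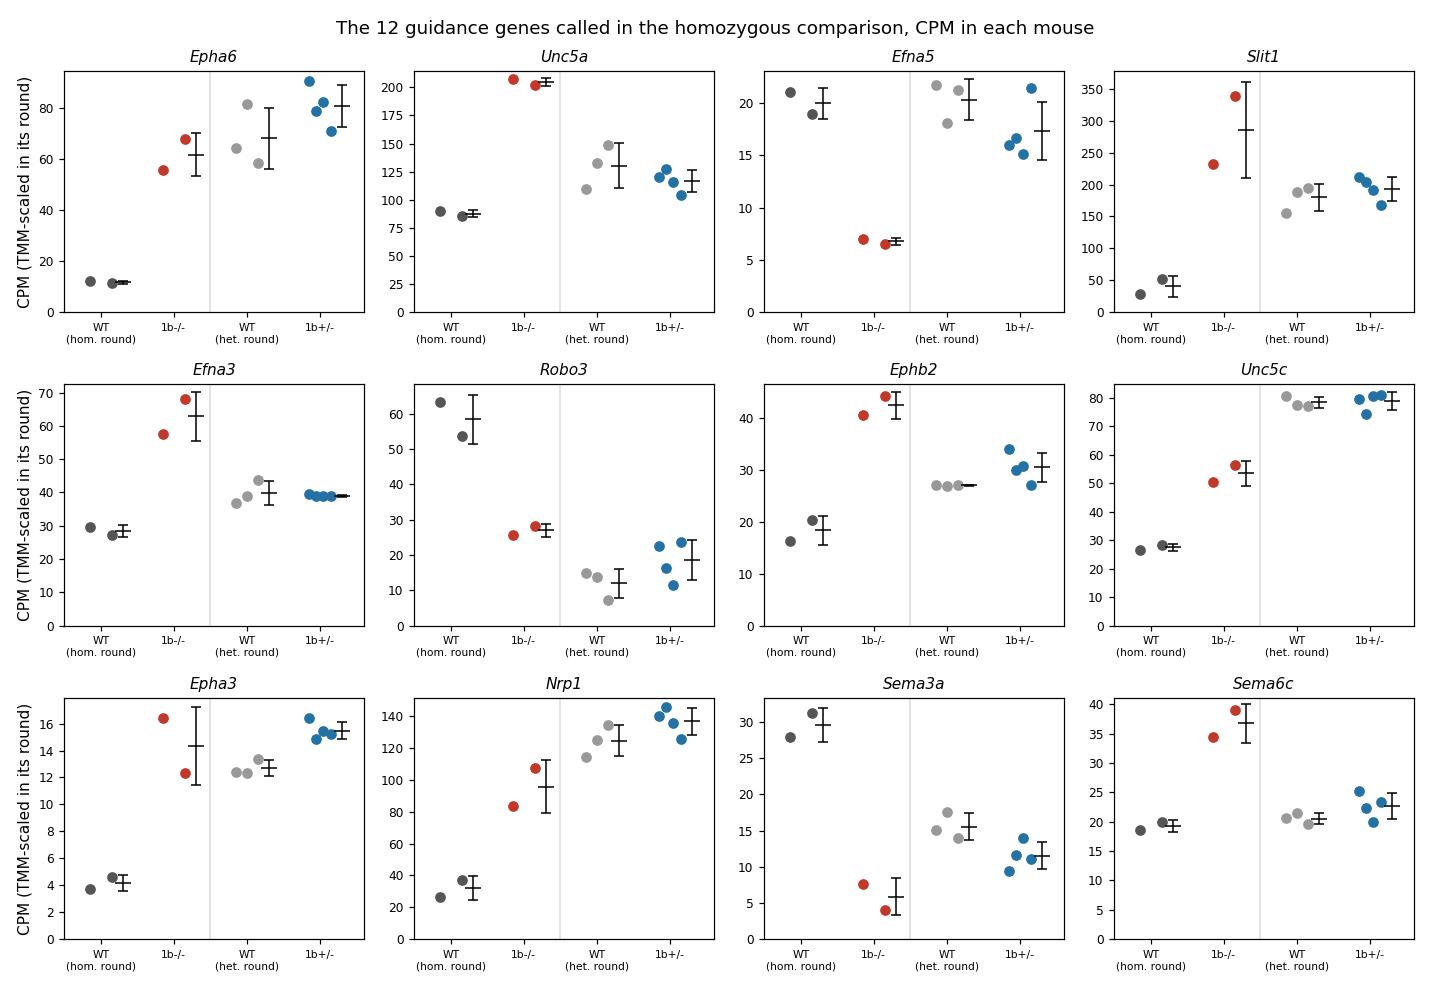
CPM in each mouse (points, linear axes from 0) for the 12 guidance genes called in the homozygous comparison, in order of p, with mean and SD in black; each round is scaled on its own, so levels compare only within a round. In all 12 panels the 2 WT and the 2 1b-/- mice of the homozygous round do not overlap. The genes were picked by p, so this is no separate evidence, and 59.7% of all genes did not overlap either.

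Among the semaphorin ligands, Sema3a and Sema6c were called, in opposite directions. Sema3a, a secreted repellent that acts through Nrp1 and A-type plexins (chromosome 5, 13125593 to 13602565, plus strand), in mm9 as for all positions given, was at 27.9 and 31.2 CPM in the WT mice and 7.67 and 4.01 CPM in the 1b-/- mice. It was 5.05-fold lower (log2 fold change -2.34, SE 0.33, edgeR adjusted p = 0.0349). Sema6c, a transmembrane semaphorin (chromosome 3, 94964379 to 94977946, plus strand), was at 18.6 and 19.99 CPM in WT and 34.5 and 39.1 CPM in 1b-/- mice (log2 fold change 0.93, SE 0.14, edgeR adjusted p = 0.0385). Both genes separated the groups without overlap. Of 20 semaphorins, 6 had higher and 4 lower values at an unadjusted p under 0.05. Sema6b was at 125 and 90.5 CPM in WT and 199.6 and 197 CPM in 1b-/- mice and missed the threshold (log2 fold change 0.88, SE 0.18, edgeR adjusted p = 0.0671). Per kilobase, Sema7a exceeded Sema6b in the WT mice of this round (64.3 ± 5.76 against 27.1 ± 6.20), unlike in the heterozygous-round WT mice. The lower ones other than Sema3a were Sema3f, Sema5b and Sema7a, with log2 fold changes of -1.01, -1.07 and -0.45. Sema3b spread widely, at 1.94 and 7.77 CPM in WT and 3.01 and 23.8 CPM in 1b-/- mice, and its 2 high libraries were the ones in which the 8 choroid plexus markers summed to 3446 and 13728 CPM, against 54.7 and 64.2 CPM in the others. The part of that tissue in Sema3b was not tested.

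Semaphorin receptors had higher estimates in 8 of 11 cases, and Nrp1 was called. Nrp1, the co-receptor of Sema3a (chromosome 8, 130882973 to 131029362, plus strand), was at 26.6 and 37.4 CPM in WT and 83.9 and 108 CPM in 1b-/- mice, 2.99-fold higher (log2 fold change 1.58, SE 0.22, edgeR adjusted p = 0.0343). Its ligand Sema3a and Nrp1 therefore moved in opposite directions. Nrp2, which serves Sema3f and related ligands, was at 9.17 and 27.4 CPM in WT and 66.3 and 96.5 CPM in 1b-/- mice. Its fold change was larger than that of Nrp1, but the WT mice differed from each other and it missed the threshold (log2 fold change 2.15, SE 0.53, edgeR adjusted p = 0.0866). The signalling receptors Plxna1 and Plxna4 lay just outside it. Plxna1 was at 60.9 and 100.3 CPM in WT and 206 and 238 CPM in 1b-/- mice (log2 fold change 1.46, SE 0.26, edgeR adjusted p = 0.0519). Plxna4 was at 58.4 and 81.96 CPM in WT and 142 and 175 CPM in 1b-/- mice (log2 fold change 1.17, SE 0.21, edgeR adjusted p = 0.0524). In all 4 genes both 1b-/- mice lay above both WT mice. Plxna3 (log2 fold change 0.49) was the only other receptor of this family at an unadjusted p under 0.05.

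Of the ephrins, Efna3 was called higher and Efna5 lower, though both are membrane-anchored ligands of EphA receptors. Efna3 (chromosome 3, 89117821 to 89126887, minus strand) was at 29.7 and 27.1 CPM in WT and 57.6 and 68.1 CPM in 1b-/- mice, 2.21-fold higher (log2 fold change 1.15, SE 0.14, edgeR adjusted p = 0.0291). Efna5 (chromosome 17, 62953533 to 63230666, minus strand) was at 21.05 and 18.96 CPM in WT and 6.99 and 6.52 CPM in 1b-/- mice, 2.96-fold lower (log2 fold change -1.57, SE 0.17, edgeR adjusted p = 0.0238). The mice of a group differed little for either gene, and the groups did not overlap. Efnb2, a transmembrane ephrin, was at 60.9 and 56.3 CPM in WT and 41.8 and 24.8 CPM in 1b-/- mice and was not called (log2 fold change -0.82, SE 0.26, edgeR adjusted p = 0.133). Efnb3, the most abundant ephrin, was at 249 and 158 CPM in WT and 185 and 184 CPM in 1b-/- mice, which overlapped.

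Eph receptors had higher estimates in 10 of 14 cases, and 3 were called, all higher. Epha6 (chromosome 16, 59653309 to 60605357, minus strand) was at 12.1 and 11.2 CPM in WT and 55.7 and 67.8 CPM in 1b-/- mice, 5.29-fold higher and the smallest p of the 71 members (log2 fold change 2.40, SE 0.16, edgeR adjusted p = 0.019). Epha3 (chromosome 16, 63543364 to 63863984, minus strand) was low in WT, at 3.75 and 4.59 CPM, and at 16.4 and 12.3 CPM in 1b-/- mice (log2 fold change 1.78, SE 0.24, edgeR adjusted p = 0.0313). Ephb2, a receptor of B-class ephrins also known from excitatory synapses (chromosome 4, 136203454 to 136391903, minus strand), was at 16.3 and 20.3 CPM in WT and 40.5 and 44.2 CPM in 1b-/- mice (log2 fold change 1.21, SE 0.16, edgeR adjusted p = 0.0307). All 3 separated the groups by more than the distance between the mice of a group. Epha4 was at 192 and 189.7 CPM in WT and 305 and 383 CPM in 1b-/- mice and fell just outside the threshold (log2 fold change 0.85, SE 0.16, edgeR adjusted p = 0.0557). Epha5 was at 37.5 and 69.7 CPM in WT and 124 and 139.8 CPM in 1b-/- mice (log2 fold change 1.30, SE 0.30, edgeR adjusted p = 0.0794). Both were higher in each 1b-/- mouse than in either WT mouse. The exceptions in direction at an unadjusted p under 0.05 were Ephb1 (log2 fold change -0.70) and Ephb6, which was at 124 and 146 CPM in WT and 91.3 and 102 CPM in 1b-/- mice (log2 fold change -0.48).

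The Slit ligands all had higher estimates in 1b-/- mice, and their receptors did not share a direction. Slit1 (chromosome 19, 41674747 to 41818155, minus strand) was at 29.1 and 52.3 CPM in WT and 233 and 339.7 CPM in 1b-/- mice, 7.04-fold higher and the largest fold change among the called members (log2 fold change 2.82, SE 0.35, edgeR adjusted p = 0.029). The WT mice differed from each other but stayed far below both 1b-/- mice. Slit2 was at 17.5 and 31.4 CPM in WT and 39.5 and 50.8 CPM in 1b-/- mice and was not called (log2 fold change 0.89, SE 0.30, edgeR adjusted p = 0.152). Slit3 had a log2 fold change of 0.90 (SE 0.24), also without a call. Robo3, a divergent receptor known from commissural axons (chromosome 9, 37223254 to 37240760, minus strand), was called lower, at 63.4 and 53.6 CPM in WT and 25.7 and 28.3 CPM in 1b-/- mice (log2 fold change -1.12, SE 0.14, edgeR adjusted p = 0.0299). Robo1 was at 72.6 and 61.5 CPM in WT and 87.1 and 94.9 CPM in 1b-/- mice, with a log2 fold change of 0.44, and Robo2 had one of -0.47, both at an unadjusted p under 0.05 only. Robo4, the endothelial member, had a log2 fold change of -0.48 (SE 0.24).

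In the netrin family the calls fell on receptors of the repulsive class. Unc5a (chromosome 13, 55050772 to 55107379, plus strand) was at 90.01 and 85.4 CPM in WT and 208 and 202 CPM in 1b-/- mice, 2.34-fold higher with close replicates in both groups (log2 fold change 1.22, SE 0.11, edgeR adjusted p = 0.0207). Unc5c (chromosome 3, 141128528 to 141497888, plus strand) was at 26.6 and 28.4 CPM in WT and 50.4 and 56.4 CPM in 1b-/- mice, 1.94-fold higher (log2 fold change 0.96, SE 0.13, edgeR adjusted p = 0.0309). Unc5d overlapped between groups, at 15.99 and 36.9 CPM in WT and 28.9 and 28.3 CPM in 1b-/- mice. Dcc, the attractive netrin receptor, was at 48.2 and 38.5 CPM in WT and 38.4 and 34.7 CPM in 1b-/- mice, with no call (log2 fold change -0.25, SE 0.16, edgeR adjusted p = 0.369). No netrin was called. Ntn1 was at 17.2 and 11.2 CPM in WT and 10.6 and 9.78 CPM in 1b-/- mice, and Ntn3 at 9.80 and 7.72 CPM in WT and 14.3 and 14.2 CPM in 1b-/- mice, with log2 fold changes of -0.48 (SE 0.25) and 0.70 (SE 0.19). Ntng1 was at 12.6 and 23.1 CPM in WT and 51.02 and 24.5 CPM in 1b-/- mice (log2 fold change 1.09, SE 0.44, edgeR adjusted p = 0.199).

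**Figure D3:**
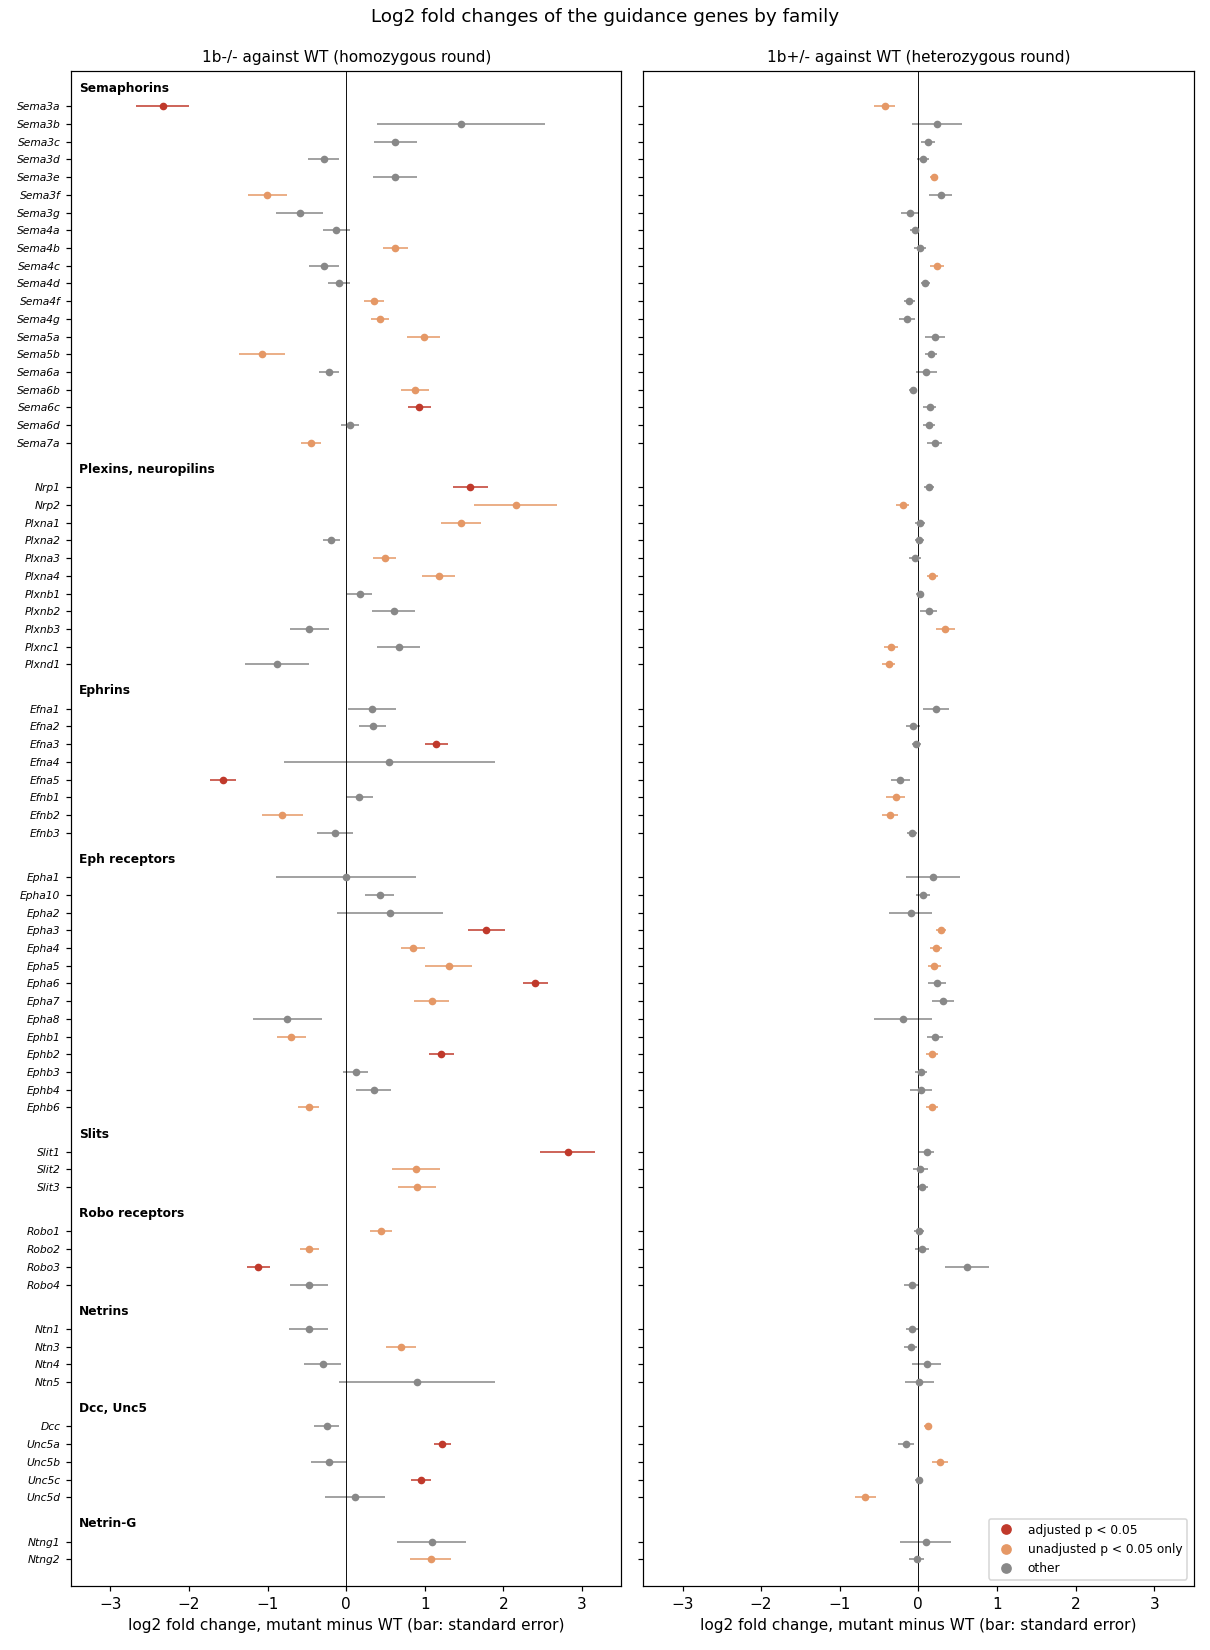
Log2 fold change (mutant minus WT of the same round, bars are standard errors) of each guidance gene tested, by family, in the homozygous comparison (left) and the heterozygous comparison (right); red marks an adjusted p under 0.05 and orange an unadjusted p under 0.05 only. The 12 red points are all on the left, from -2.34 for Sema3a to 2.82 for Slit1, and the right panel spans -0.68 for Unc5d to 0.62 for Robo3.

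In 1b+/- mice none of the 70 guidance genes tested was called by edgeR's quasi-likelihood test, nor was any of the 14630 genes (0%). Scn1a, the targeted gene, was among those not called (log2 fold change -0.47, SE 0.15, edgeR adjusted p = 0.303). The absence of calls therefore cannot show that no guidance gene differed. The paper, in its own edgeR analysis of the heterozygous mice, reported Scn1a as significantly lower and further genes as differentially expressed. At an unadjusted p under 0.05 there were 18 members, 11 higher and 7 lower, or 25.7% beside 11.3% of all genes. With upper-quartile factors in place of TMM these were 16 higher and 6 lower. The likelihood ratio test called 3 members (Unc5d, Plxnd1 and Plxnc1, all lower), and DESeq2 called the same 3 and Efnb2, among 191 and 245 genes called in all. Groups did not overlap for 9 members (12.9%, beside 10.9% of all genes), 5 higher and 4 lower. The median log2 fold change was 0.05 over members and 0.000729 over all genes. Receptors made up 13 of the 18 (9 higher, 4 lower, of 34 tested) and ligands 5 (2 higher, 3 lower, of 36 tested). With 3 mice against 4, the smallest p an exact permutation test can give is 0.0286, two-sided. Where a member was picked by its edgeR p, its exact permutation p comes from the same libraries and is no separate evidence.

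The smallest p was that of Unc5d, which was at 57.9, 80.1 and 91.3 CPM in WT and 41.5, 50.6, 49.996 and 48.98 CPM in 1b+/- mice. The groups did not overlap, and the level was 1.60-fold lower in 1b+/- mice (log2 fold change -0.68, SE 0.14, edgeR unadjusted p = 0.000705, adjusted p = 0.122, exact permutation p = 0.0286). Plxnd1, the receptor that binds Sema3e directly, was at 94.9, 107 and 89.4 CPM in WT and 72.9, 83.6, 76.6 and 65.5 CPM in 1b+/- mice (log2 fold change -0.38, SE 0.09, edgeR unadjusted p = 0.00161, adjusted p = 0.165, exact permutation p = 0.0571). Its ligand Sema3e was at 61.5, 67.5 and 67.3 CPM in WT and 78.3, 73.7, 73.3 and 73.7 CPM in 1b+/- mice (log2 fold change 0.19, SE 0.05, edgeR unadjusted p = 0.00331, adjusted p = 0.203, exact permutation p = 0.0286). The estimates of receptor and ligand thus had opposite signs, but neither gene was called. The groups did not overlap for either gene, which also held for 10.9% of all genes. Plxnc1, the plexin that binds Sema7a, was at 83.4, 96.5 and 96.7 CPM in WT and 62.6, 73.2, 81.6 and 71.9 CPM in 1b+/- mice (log2 fold change -0.35, SE 0.09, edgeR unadjusted p = 0.00291, adjusted p = 0.195, exact permutation p = 0.0571), also without overlap.

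Efnb2 and Epha3 completed the 6 members with the smallest p. Efnb2 was at 54.1, 65.4 and 74.5 CPM in WT and 45.3, 52.05, 53.6 and 50.4 CPM in 1b+/- mice (log2 fold change -0.36, SE 0.10, edgeR unadjusted p = 0.00564, adjusted p = 0.246, exact permutation p = 0.0286). Epha3 was at 12.4, 12.3 and 13.4 CPM in WT and 16.4, 14.9, 15.4 and 15.2 CPM in 1b+/- mice (log2 fold change 0.29, SE 0.07, edgeR unadjusted p = 0.00203, adjusted p = 0.175, exact permutation p = 0.0286). For both, every 1b+/- mouse lay on one side of every WT mouse. Epha4 was at 375, 356 and 317 CPM in WT and 463, 399, 386 and 388 CPM in 1b+/- mice (log2 fold change 0.23, SE 0.08, edgeR unadjusted p = 0.0153, adjusted p = 0.327, exact permutation p = 0.0286). Dcc was at 53.1, 52.8 and 54.6 CPM in WT and 56.8, 57.3, 62.5 and 56.5 CPM in 1b+/- mice (log2 fold change 0.12, SE 0.05, edgeR unadjusted p = 0.0278, adjusted p = 0.372, exact permutation p = 0.0286). These differences were small, 1.17-fold and 1.09-fold higher, though the groups did not overlap.

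**Figure D4:**
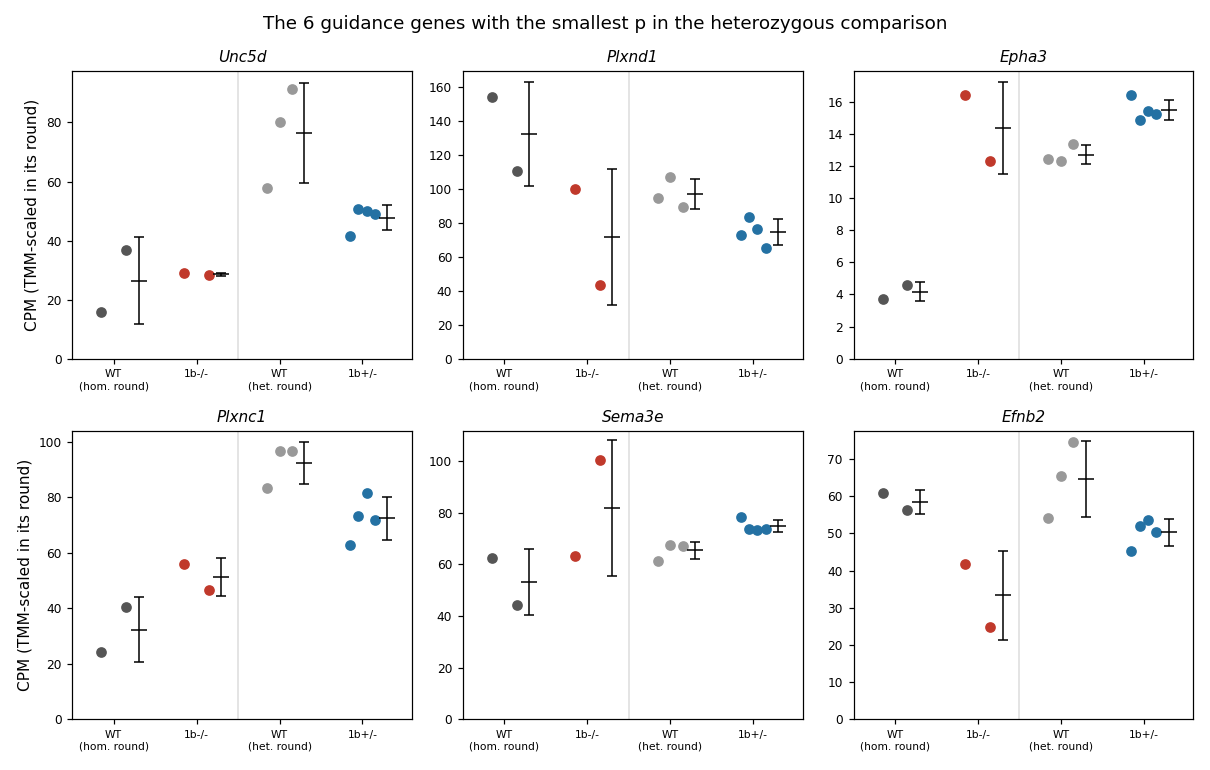
CPM in each mouse (points, linear axes from 0) for the 6 guidance genes with the smallest p in the heterozygous comparison, with mean and SD in black and all 4 groups shown; each round is scaled on its own. In all 6 panels the 3 WT and the 4 1b+/- mice of the heterozygous round do not overlap, and none of these genes passed the adjusted threshold. The genes were picked by p, so the lack of overlap is no separate evidence (10.9% of all genes did not overlap).

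By family, the heterozygous estimates leaned higher among Eph receptors (12 of 14, 5 at an unadjusted p under 0.05) and lower among ephrins (6 of 7, with Efnb1 and Efnb2 at an unadjusted p under 0.05). Neither any Slit or Robo gene nor any netrin reached that level. Slit1 was at 156, 189 and 195 CPM in WT and 211, 203, 192 and 168 CPM in 1b+/- mice (log2 fold change 0.11, SE 0.09). Slit2 was at 54.9, 62.8 and 66.03 CPM in WT and 52.7, 65.7, 61.9 and 68.5 CPM in 1b+/- mice (log2 fold change 0.02, SE 0.09). Both overlapped between the groups. Robo1 was at 88.99, 85.97 and 79.4 CPM in WT and 80.9, 83.5, 92.9 and 83.6 CPM in 1b+/- mice (log2 fold change 0.01, SE 0.06), and Ntn1 at 12.3, 11.5 and 10.5 CPM in WT and 10.8, 11.3, 10.3 and 11.1 CPM in 1b+/- mice (log2 fold change -0.08, SE 0.08). Robo3 had the largest positive estimate, 0.62, but its WT values of 14.97, 13.6 and 7.37 CPM and its 1b+/- values of 22.4, 16.3, 11.5 and 23.7 CPM overlapped (SE 0.28).

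Among the genes of other families with a reference role, Nrp1 was at 115, 125 and 134 CPM in WT and 140.4, 146, 136 and 126 CPM in 1b+/- mice (log2 fold change 0.14, SE 0.07). Plxna1 was at 167, 186 and 188 CPM in WT and 186, 190.0, 192 and 165 CPM in 1b+/- mice (log2 fold change 0.02, SE 0.06). Sema3a was at 15.04, 17.6 and 13.9 CPM in WT and 9.41, 11.7, 14.03 and 11.1 CPM in 1b+/- mice (log2 fold change -0.43, SE 0.13, edgeR unadjusted p = 0.00979, adjusted p = 0.283). In each of these 3 the groups overlapped. Among the members highest per kilobase in their family, Sema6b, Efnb3 and Unc5a had log2 fold changes of -0.07 (SE 0.05), -0.08 (SE 0.06) and -0.16 (SE 0.10). Other abundant members had positive estimates, 0.23 (SE 0.08) for Epha4 and 0.21 (SE 0.10) for Sema7a.

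One WT library of the heterozygous round stood apart in markers of neighbouring tissue. The 8 thalamic markers summed to 776 CPM in WT replicate 1 against 254 and 227 CPM in the other WT libraries, and to 244, 247, 395 and 582 CPM in the 1b+/- libraries. Ntng1 was high in the same libraries, at 93.02, 35.2 and 47.3 CPM in WT and 48.7, 45.99, 72.1 and 83.3 CPM in 1b+/- mice. The 8 oligodendrocyte markers summed to 10181, 6397 and 6162 CPM in WT and 9476, 9555, 8831 and 10397 CPM in 1b+/- libraries, so that WT replicate 1 lay within the range of the 1b+/- mice and the other 2 WT mice below it. Plxnb3, a receptor of Sema5a, was at 44.99, 30.5 and 31.6 CPM in WT and 43.5, 47.2, 42.9 and 47.97 CPM in 1b+/- mice (log2 fold change 0.34, SE 0.12, edgeR unadjusted p = 0.0206, adjusted p = 0.345). Unc5b was at 47.6, 34.9 and 36.4 CPM in WT and 47.3, 46.98, 45.8 and 51.9 CPM in 1b+/- mice (log2 fold change 0.27, SE 0.10, edgeR unadjusted p = 0.0236, adjusted p = 0.356). For both genes, too, only WT replicate 1 lay within the 1b+/- range, and the other 2 WT mice were below it. The part of these tissues in the values was not tested. Without WT replicate 1, edgeR called 7 members: Unc5d, Efnb2, Plxnc1 and Nrp2 lower, and Plxnb3, Unc5b and Sema7a higher. In that fit 23 members and 2348 of all genes had an unadjusted p under 0.05, against 18 and 1649 with every mouse kept.

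**Figure D5:**
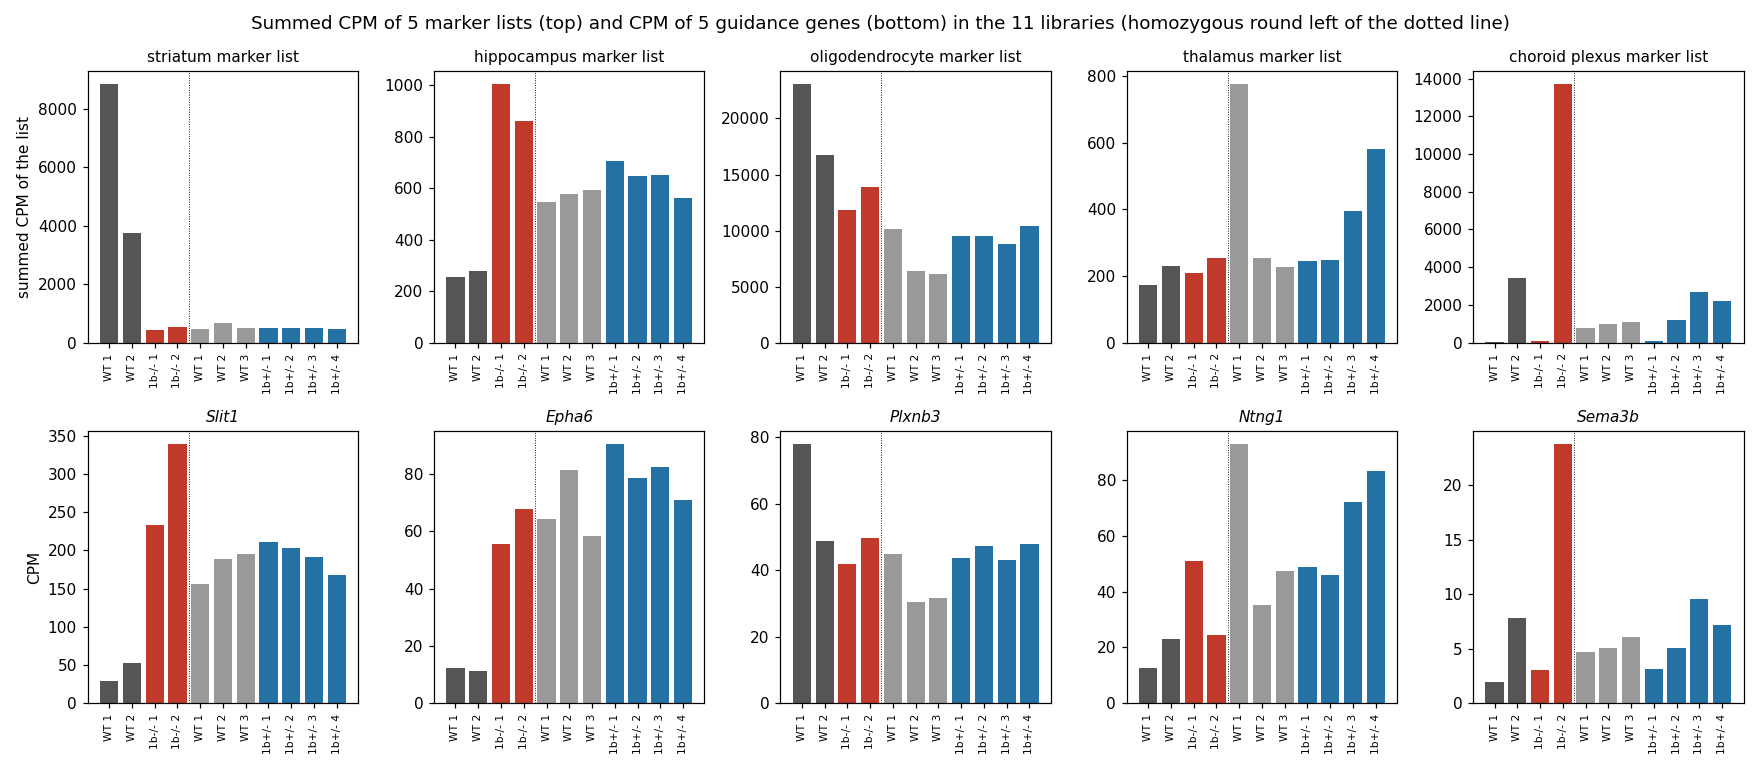
Summed CPM of 5 marker lists (top row) and CPM of 5 guidance genes (bottom row) in each of the 11 libraries, as bars from 0, homozygous round left of the dotted line; each round is scaled on its own. Striatal markers reach 8851 and 3758 CPM in the WT libraries of the homozygous round only, and the thalamic sum and Ntng1 are both highest in WT replicate 1 of the heterozygous round, at 776 and 93.0 CPM.

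At an unadjusted p under 0.05 in both comparisons there were 9 members, 7 with the same direction. In the single comparisons 18 of 70 and 36 of 71 members were at that level, so some overlap arises without any link between the mutants. The share of all genes at that level in both is not given here, so the 9 are a description only. Epha3, Epha4, Epha5, Ephb2 and Plxna4 had higher values in both mutants, and Efnb2 and Sema3a lower. The heterozygous values of the 3 not yet given were as follows. Epha5 was at 144, 159.7 and 130.2 CPM in WT and 187, 165, 164 and 149.7 CPM in 1b+/- mice, Ephb2 at 27.1, 26.9 and 26.9 CPM in WT and 34.03, 29.8, 30.7 and 27.1 CPM in 1b+/- mice, and Plxna4 at 209.7, 239 and 196 CPM in WT and 256, 255, 242 and 220.2 CPM in 1b+/- mice. Of these only Ephb2 separated the groups, by a narrow margin. The log2 fold changes in 1b+/- mice, 0.20, 0.17 and 0.18, stood beside 1.30, 1.21 and 1.17 in 1b-/- mice. Ephb6 and Nrp2 had opposite directions. Ephb6 was at 64.2, 54.97 and 71.1 CPM in WT and 74.1, 70.5, 69.7 and 71.8 CPM in 1b+/- mice (log2 fold change 0.17), and Nrp2 at 76.6, 93.9 and 95.8 CPM in WT and 74.04, 74.3, 75.2 and 85.4 CPM in 1b+/- mice (log2 fold change -0.20). The fold changes of both differed between the comparisons in the test given next.

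Whether a fold change differed between the comparisons was tested directly over the 11 libraries. The test shares 1 estimate of variation per gene across both rounds. The biological coefficient of variation was 22.9% in the homozygous round, 9.13% in the heterozygous round and 14.1% over the 11 libraries. The p-values of this test may therefore be too small for the more variable homozygous round. The difference was called for 36 of 71 members (50.7%, beside 27.3% of all genes), 26 positive (homozygous minus heterozygous log2 fold change) and 10 negative. All 12 genes called in 1b-/- mice were among them. The differences were largest for Slit1 (2.7, SE 0.31, edgeR adjusted p = 0.000389) and Epha6 (2.15, SE 0.21, edgeR adjusted p = 0.000143), and on the negative side for Sema3a (-1.91, SE 0.33, edgeR adjusted p = 0.0028). Among members with the smallest heterozygous p, the difference passed for Epha3 (1.49, SE 0.19, edgeR adjusted p = 0.00062) and Plxnc1 (1.01, SE 0.26, edgeR adjusted p = 0.0168). It did not pass for Unc5d (0.78, SE 0.39, edgeR adjusted p = 0.157), Plxnd1 (-0.51, SE 0.38, edgeR adjusted p = 0.354), Sema3e (0.42, SE 0.24, edgeR adjusted p = 0.216) or Efnb2 (-0.46, SE 0.27, edgeR adjusted p = 0.224). The rounds also differed in read type, in sex balance and in the striatal and hippocampal marker sums of their WT libraries given above (striatal 8851 and 3758 CPM against 479 to 689.7 CPM), which cannot be told apart from the difference between genotypes.

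Effectors and partners of guidance receptors were counted from a list of 61 genes, all tested. In 1b-/- mice 4 were called higher and 1 lower (5 of 61, beside 3.58% of all genes), and 16 had higher and 10 lower values at an unadjusted p under 0.05. Of all genes, 26.4% were at that level. Nck2, an adaptor that links receptors to the actin cytoskeleton, was at 23.6 and 25.7 CPM in WT and 49.6 and 51.2 CPM in 1b-/- mice (log2 fold change 1.03, edgeR adjusted p = 0.0272). Crmp1, a mediator of Sema3a signalling, was at 148 and 146 CPM in WT and 312 and 391 CPM in 1b-/- mice (log2 fold change 1.26, edgeR adjusted p = 0.029). Dpysl3 of the same family and Rgmb, a ligand of the Dcc relative Neo1, were the others called higher, and Chn2, a Rac-inactivating protein, was called lower. In 1b+/- mice none of the 61 was called by edgeR, with 4 higher and 4 lower at an unadjusted p under 0.05 and a median log2 fold change of 0.00326. That is near the 11.3% of all genes at that level.

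Further marker lists gave the setting of the homozygous comparison. Among markers of dentate granule cells 3 of 10 were called higher, of CA1 pyramidal cells 4 of 8, and of CA3 pyramidal cells 3 higher and 1 lower of 9. For septal and basal forebrain cholinergic neurons 4 of 8 were called lower, for neocortex 3 of 10 lower, and for GABAergic interneurons 1 higher and 1 lower of 10. None was called among markers of thalamus, oligodendrocytes and their precursors, astrocytes, microglia, endothelial and mural cells, choroid plexus, meninges or immature neurons. The oligodendrocyte sum was 23101 and 16703 CPM in WT and 11870.0 and 13924 CPM in 1b-/- libraries. At an unadjusted p under 0.05 these lists held 4 of 8 oligodendrocyte, 4 of 8 endothelial and mural and 3 of 7 microglial markers, all lower, and 3 of 7 meningeal markers, all higher. They also held 1 thalamic marker in each direction and 1 astrocyte and 1 immature neuron marker higher. Beside these counts, 26.4% of all genes were at that level. In the heterozygous comparison no marker of any list was called by edgeR. At an unadjusted p under 0.05 that comparison held 7 of 14 striatal and 6 of 10 GABAergic interneuron markers lower and 1 striatal marker higher. It held 4 of 10 dentate granule cell, 4 of 8 oligodendrocyte, 4 of 8 CA1 and 2 of 7 hippocampal markers higher, and 1 dentate marker (Calb1) lower. There were also 1 CA3 marker higher and 1 lower, 1 neocortical marker higher, and 1 astrocyte and 1 meningeal marker lower. Beside these counts, 11.3% of all genes were at that level in the heterozygous comparison.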

How the data were processed

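RNA-seq of hippocampus from 11 mice, 1 library each, was analysed. The authors deposited unnormalized counts for each gene, in 1 table per round. Reads of stranded mRNA libraries were aligned to mm9 with STAR 2.7.2 and counted with featureCounts, whose version and strand setting are not given in the sources used here, so overlapping and antisense pairs such as Plxna4 and Plxna4os1 are uncertain. Columns were assigned to samples by name, since the labels give the file names of the rounds the other way round.

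The main tests were made in R 4.3.3 with edgeR 4.0.16 (a gene had to reach 1 CPM in 1 or more libraries of its round; TMM factors, glmQLFit and glmQLFTest, genotype as the only term, Benjamini-Hochberg adjustment over all genes tested, threshold 0.05). A called gene passed that threshold. The difference between comparisons was a contrast over 11 libraries, without 27 rows whose symbols had become dates. Standard errors were taken from the F statistic, as |log2 fold change|/√F. Exact permutation tests used log2(CPM + 0.5), two-sided. Exon lengths and coordinates (mm9, the union of exons) came from GENCODE and may differ from the annotation used for counting; Efna5 and Ntng1 pool 2 annotated genes each. The scripts were tested on simulated data.

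The members and lists were chosen with earlier results of these data known. One marker of the hippocampal list is not reported here and was left out of its sums and counts. Described by mouse were members called in either comparison, the 6 with the smallest heterozygous p and those with an unadjusted p under 0.05 in both. Also described were 8 reference members and, per family, the ligand and receptor highest per kilobase in heterozygous-round WT mice. From each other list the 2 genes with the smallest homozygous p could be named; Ppp1r1b, Isl1, Calb1, Dpysl3, Rgmb, Chn2, Plxnb3, Unc5b and Sema3b were named after their values were seen. Alternatives were DESeq2 1.42.0 and edgeR's likelihood ratio test, upper-quartile or RLE factors, other filters (filterByExpr, none), a sex term, a joint fit over 11 libraries, and fits that dropped 1 mouse.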

Additional observations from a re-analysis of the deposited data

Results flagged for a closer look

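In the 1b+/- group, 1 of the 4 mice stood apart for 4 of 31 guidance genes examined, by the gap to its nearest neighbour as a share of the group's range (Dixon's test at the 95% level). Chance alone does this in about 1 of 20 groups. The gap was 0.858 for Dcc (replicate 3, 62.5 CPM, others from 56.5), 0.835 for Epha4 (replicate 1, 463 CPM, others from 386), 0.902 for Nrp2 (replicate 4, 85.4 CPM, others from 74.0) and 0.915 for Sema3e (replicate 1, 78.3 CPM, others from 73.3).

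The log2 fold change in 1b-/- mice differed from that in 1b+/- mice for 36 members by edgeR's test of the difference. That test shares its estimate of variation across both rounds, though the homozygous round varied more. Among the 12 called in 1b-/- mice, the difference (homozygous minus heterozygous) was 2.7 for Slit1, 2.15 for Epha6, 1.49 for Epha3, 1.44 for Nrp1, 1.37 for Unc5a, 1.16 for Efna3, 1.03 for Ephb2, 0.94 for Unc5c and 0.78 for Sema6c. It was -1.34 for Efna5, -1.74 for Robo3 and -1.91 for Sema3a. The comparisons differ in round, read type, sex balance and the striatal and hippocampal marker sums of their WT libraries, which cannot be told apart from genotype here.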

How the results depend on the processing

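The 12 guidance genes called in the homozygous comparison became 25 with the likelihood ratio test, 29 with DESeq2 and 20 with no filter. The count was 43 with all 11 libraries in 1 fit, which shares variation across rounds, and 22 with sex as a covariate. Each of these sets held all 12. All genes at an unadjusted p under 0.05 numbered 3563, 3791, 4207, 6955 and 2884 in this order, against 3922 in the main fit. Members at that level numbered 40, 41, 42, 48 and 37, against 36. The share of all genes called in each fit is not set beside the counts of called members here. A larger count is therefore not by itself a stronger result for the guidance genes. Only 1b-/- replicate 1 was male in that round, so its sex term in effect sets that mouse aside. RLE factors, upper-quartile factors and filterByExpr each gave 12. Leaving out 1 mouse at a time gave 0 to 21: 0 without WT replicate 1 and 3 without WT replicate 2, where only Epha6 was shared with the 12. The heterozygous count of 0 was 3 with the likelihood ratio test and 4 with DESeq2, and leaving out 1 mouse at a time gave 0 to 7, the 7 without WT replicate 1. The 36 differences between comparisons ranged from 29 (sex as a covariate) to 42 (without WT replicate 2 of the homozygous round). Of the 31 members chosen by rule, 9 fold changes reversed in at least 1 setting, none of them past the adjusted threshold. On leaving out 1 mouse at a time, the homozygous log2 fold change ranged from -0.432 to 0.225 for Efnb3 and from -0.363 to 0.839 for Unc5d, and both reversed without WT replicate 1. The heterozygous one ranged from -0.164 to 0.603 for Ntng1, -0.0483 to 0.0963 for Slit2, -0.0382 to 0.0428 for Robo1, -0.0294 to 0.0717 for Plxna1, -0.00392 to 0.0353 for Unc5c, -0.0785 to 0.0463 for Efna3 and -0.114 to 0.000669 for Efnb3. The sex term reversed Ntng1 (-0.0792), Slit2 (-0.0244) and Unc5c (-0.00384) in that comparison. Only 1b+/- replicate 4 was female there, and leaving that mouse out gave nearly the same values (-0.0793, -0.0244 and -0.00392). The median log2 fold change stayed between 0.25 and 0.39 in the homozygous and 0.04 and 0.09 in the heterozygous comparison. No paired analysis was possible because the labels tie no mouse of one group to a mouse of another. The chi-square per gene between replicates was 5.95 to 78.5, an average that abundant genes can carry, so the limit that depth sets for a single member was not tested.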

Other observations

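The rounds differed in the level of the guidance genes in WT mice. With counts scaled over all 11 libraries, the WT mean of the heterozygous round lay nearer the 1b-/- mean than the WT mean of the homozygous round for 51 of 70 members (72.9%), and for 48.8% of all 14149 genes tested in both rounds. Among the 12 called members this held for 8 (66.7%), beside 72.8% of the 515 called genes. Slit1 had scaled means of 40.1 CPM in the WT mice of the homozygous round, 279.8 CPM in 1b-/- mice and 185 CPM in heterozygous-round WT mice. For Epha6 these were 11.5, 60.4 and 70.0 CPM, for Nrp1 31.5, 93.6 and 128 CPM and for Epha3 4.10, 14.1 and 13.1 CPM. Robo3 was lower in heterozygous-round WT mice than in either group of the homozygous round, at 57.6, 26.4 and 12.3 CPM. For the other 4 called members, Efna3, Efna5, Sema3a and Sema6c, the heterozygous-round WT mean lay nearer the WT mean of the homozygous round. Efna5 had 19.7 CPM in the WT mice of the homozygous round, 6.61 CPM in 1b-/- mice and 20.9 CPM in heterozygous-round WT mice. The rounds differ in read type and in the sex of the WT mice. Their WT libraries also differ in striatal marker sums (8851 and 3758 CPM against 479 to 689.7 CPM, over 15 and 14 markers) and in the sums of the 7 hippocampal markers (256 and 279 CPM against 545 to 594 CPM). The part of these in the level was not tested.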
